A study of Mus musculus with 8 samples.

Results

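The mouse genes Meis1, Meis2, Meis3, Pbx2, Pbx3, Pbx4, Pknox1 and Pknox2 encode homeodomain proteins that bind DNA together with Hox proteins. They were taken by gene symbol and are 8 of the 50578 genes in the deposited count table. The 8 RNA-seq libraries came from wild-type mouse embryonic fibroblasts (MEFs), 2 from control cells and 2 from cells under each of 3 compounds at 10 µM, namely carbidopa, LY-364947 and CHIR-99021. All cells were C57BL/6J fibroblasts of passages between P3 and P5, grown from E13.5 embryos after the head, tail, limbs and internal organs had been removed. Carbidopa blocks the enzyme that makes dopamine from its precursor, LY-364947 (spelled LY-364747 in the labels) blocks signaling through the type I receptor of TGF-beta, and CHIR-99021 turns on Wnt signaling by blocking GSK3. The control group is labelled only as control, and neither a vehicle nor the duration of treatment for these libraries is given in the sources used here. The labels number the libraries of a group but do not say whether they came from separate cultures or embryos, so each p-value measures the spread between these libraries, which may be technical.

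Meis, Pbx and Pknox proteins share an atypical homeodomain with an extension of amino acids in its first loop, from which the class takes the name TALE. A Pbx protein binds DNA beside a Hox protein and sharpens the choice of site, while Meis and Pknox (also called Prep) proteins bind Pbx through their amino-terminal part and help to keep it in the nucleus. The genes are known for patterning the embryonic axis, the limbs and the hindbrain. In the limb bud, Meis1 and Meis2 mark the part nearest the trunk and are known to be induced by retinoic acid.

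Of the 8 genes, 5 had an entry in RefSeq's table of gene starts (GRCm38.p6). The stretches shown belong to Meis1, Meis2 and Pbx4, the members with an entry that passed the threshold as higher under both carbidopa and LY-364947, Pbx4 with the limit given at its reads. Each is the longest run, among the 250 bases before the RefSeq start, that lies outside all exons of GENCODE M21. It is read on the strand of the gene, and capitals mark the CCAAT box, CCAAT or its complement ATTGG. The stretch of Meis1 lies at chr11:19018986-19019219 on the minus strand, that of Meis2 at chr2:116064722-116064801 on the minus strand, inside the annotated gene, and that of Pbx4 at chr8:69832374-69832490 on the plus strand.
Meis1: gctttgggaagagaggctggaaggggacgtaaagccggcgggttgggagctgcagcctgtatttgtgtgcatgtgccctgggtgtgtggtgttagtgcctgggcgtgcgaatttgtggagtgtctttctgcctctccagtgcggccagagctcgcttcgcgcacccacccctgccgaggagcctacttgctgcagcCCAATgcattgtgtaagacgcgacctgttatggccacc
Meis2: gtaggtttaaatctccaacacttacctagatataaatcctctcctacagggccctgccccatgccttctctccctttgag
Pbx4: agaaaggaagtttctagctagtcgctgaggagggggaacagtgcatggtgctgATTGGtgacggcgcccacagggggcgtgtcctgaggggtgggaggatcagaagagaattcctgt
In the full 250 bases before the start, the CCAAT box was found on either strand in Meis1, Meis2 and Pbx4 and not in Meis3 or Pbx2, and 33.8% of all 32851 promoters in the table hold it. The hexamer TGACAG, bound by Meis and Pknox proteins, was in none of the 5 windows and is in 15.9% of all promoters. The octamer TGATNNAT of Hox and Pbx pairs (7.68% of all promoters) and the heptamer TGATTGA (2.34%), which can overlap it, were also absent from the 5 windows. These matches describe the letters in these windows only.

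Total counts ranged from 15039566 to 20504338 per library. A gene was tested if edgeR's filterByExpr kept it, which left 15154 genes. All 8 members were kept, Pbx4 only through the treated libraries, since its 2 MEF libraries held 6 reads and 1 read. Values are given as TMM-scaled CPM (reads of a gene relative to the size of its library), and differences as log2 fold changes from edgeR's quasi-likelihood test with all 8 libraries in 1 fit. A gene is called higher or lower at a Benjamini-Hochberg adjusted p under 0.05 over all genes tested. The 10 fibroblast markers (among them Col1a1, Pdgfra, Thy1 and Vim) had reads in every library, and their sum fell between 34774 and 35112 CPM for MEFs and between 8130 and 11716 CPM after treatment (8 of 10 lower and 1 higher in each treatment). Treated cells are labelled as hepatic-like, but the 8 hepatocyte markers (Alb, Afp, Ttr, Hnf4a and others) together had 19 to 30 reads in a treated library and 4 and 9 in MEFs, with 3 to 5 of the 8 at 0 in each treated library. All 12 macrophage markers were lower in each treatment, and their sum went from 1208 and 1252 CPM in MEFs to 88.1 to 393 CPM. For the 5 neural markers the sums were 64.0 and 70.3 CPM before treatment against 7.72 to 10.6 CPM after it, and for the 4 skeletal muscle markers 30.6 and 31.4 CPM against 6.34 to 11.3 CPM. The 6 endothelial markers gave 16.8 and 19.6 CPM against 11.3 to 15.6 CPM, and the 5 epithelial markers 2.97 and 4.02 CPM against 9.32 to 20.9 CPM. In MEFs 2 of the muscle markers, 1 of the endothelial and 2 or 3 of the epithelial markers were at 0. Only 1 muscle marker could be tested (lower in each treatment), and 3 had 3 reads or fewer in every library. In the order carbidopa, LY-364947, CHIR-99021, 2, 2 and 3 of the 4 neural markers tested were lower. Of the 3 endothelial markers tested, 1, 1 and 2 were lower, and of the 2 epithelial ones 1, 1 and 2 were higher. These sums thus rest on few genes. These shifts move with every contrast against MEFs below, and their part in the results for the Meis, Pbx and Pknox genes was not tested. In bulk libraries, fewer cells of a type and less RNA per cell cannot be told apart.

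To compare genes with each other, CPM was divided by the summed exon length in kb. In MEFs, Meis2 had the highest level of the 8 genes, 7.86 ± 0.13 CPM per kb (SD, n = 2 here and below), followed by Pbx2 at 7.22 ± 0.012. Meis3 had 3.94 ± 0.19, Pknox1 3.37 ± 0.15, Meis1 3.16 ± 0.17 and Pbx3 2.99 ± 0.21 CPM per kb, and of these neither Pknox1 and Meis1 nor Meis1 and Pbx3 were separated by their 2 libraries. Pknox2 had 1.17 ± 0.043 and Pbx4 0.115 ± 0.12 CPM per kb. In treated cells Meis2 stood further above the rest, with 26.6 ± 0.60 CPM per kb for carbidopa, 26.4 ± 1.1 for LY-364947 and 27.5 ± 0.29 for CHIR-99021. Pbx2, the next gene in each group, had 10.5 ± 1.8, 8.61 ± 0.29 and 9.45 ± 0.15 CPM per kb in the same order. The last places changed, since Pknox2 lay above Pbx4 in MEFs and below it in every treated group, at 0.274 ± 0.014 against 0.656 ± 0.21 CPM per kb for carbidopa, 0.274 ± 0.065 against 0.751 ± 0.024 for LY-364947, and 0.397 ± 0.037 against 0.496 ± 0.077 for CHIR-99021. In cells given LY-364947, the libraries of Meis3 and Meis1 also overlapped. These orders depend on the length used. Per kb of coding length Pbx4 stayed last in every group and Meis1 came second in MEFs, and per kb of the longest transcript Meis1 came sixth in MEFs and Pbx4 was last in MEFs and under CHIR-99021. Averaged over all libraries, the level per kb of Meis2 was above that of 86.2% of the 15126 tested genes with a length, and that of Pbx4 above 15.9%.

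**Figure D1:**
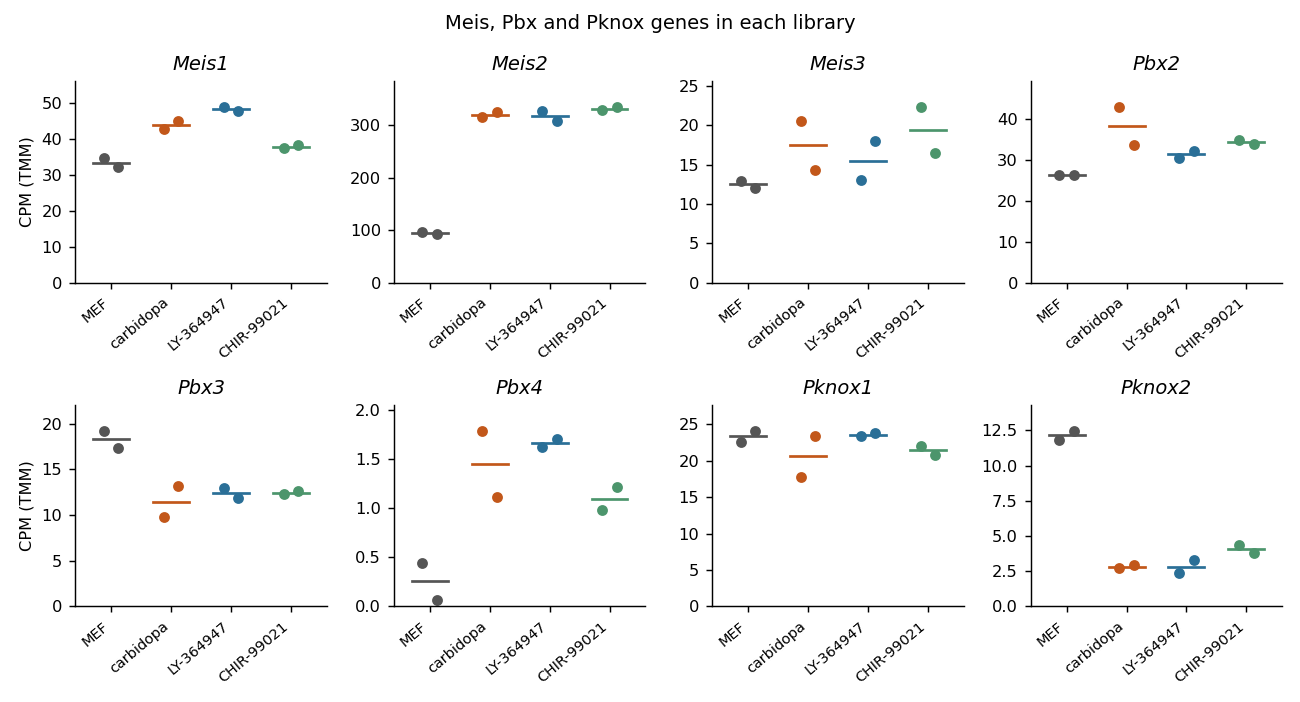
CPM (TMM-scaled, linear axis from 0, own scale per panel) of each gene in each library, with 1 point per library and a line at the mean of the 2 libraries of a group. Meis1, Meis2, Meis3, Pbx2 and Pbx4 sit higher and Pbx3 and Pknox2 lower in all 6 treated libraries than in both MEF libraries. Of these, Meis1, Meis3 and Pbx2 did not pass the test in every treatment. The share of all tested genes whose treated libraries sit apart from MEFs in this way was not counted.

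Meis2, which encodes a partner of Pbx and Hox proteins in limb, palate and heart development, rose by more than 3-fold with each of the 3 compounds. The MEF libraries held 95.8 and 93.6 CPM, those of carbidopa 315 and 325 CPM, those of LY-364947 327 and 309 CPM, and those of CHIR-99021 329 and 334 CPM. All treated libraries stood far above both MEF libraries, and replicates lay close together. The log2 fold change was 1.76 for carbidopa (SE 0.09, adjusted p = 3.09e-07, 3.38-fold), 1.75 for LY-364947 (SE 0.09, adjusted p = 3.36e-07, 3.36-fold) and 1.81 for CHIR-99021 (SE 0.09, adjusted p = 2.46e-07, 3.50-fold). Over 10 alternatives per treatment the value stayed between 1.71 and 1.83 and was called each time. Meis2 (ENSMUSG00000027210, chromosome 2 of mm10, 115863064 to 116065839, minus strand) shares no word of 75 bases with the transcripts of any other annotated gene.

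Meis1, the paralog known for its role in blood stem cells and with Hoxa9 in leukemia, rose less. Its levels were 34.6 and 32.0 CPM in the MEF libraries, 42.7 and 44.9 CPM under carbidopa, 48.7 and 47.7 CPM under LY-364947, and 37.4 and 38.2 CPM under CHIR-99021. The groups did not overlap, and the order from MEF through CHIR-99021 and carbidopa to LY-364947 held for every pair of libraries. With LY-364947 the log2 fold change was 0.53 (SE 0.10, adjusted p = 0.00247), called under all 10 alternatives. With carbidopa it was 0.40 (SE 0.10, adjusted p = 0.0119), a call that was lost without MEF replicate 1 (0.45, adjusted p = 0.0516), without MEF replicate 2 (0.34, adjusted p = 0.135) and when only carbidopa and MEF libraries were fitted (0.39, adjusted p = 0.0573). With CHIR-99021 the value of 0.18 (SE 0.10, adjusted p = 0.181) did not pass. Meis1 (ENSMUSG00000020160, chromosome 11, 18879817 to 19018985, minus strand) shares 16.1% of its words of 75 bases with Gm16140 and Gm37818. These overlap its exons and had 0 to 5 and 17 to 42 reads per library. How reads in the shared stretches were counted is not given in the sources used here.

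Meis3, the third paralog, known from hindbrain patterning, was measured at 12.9 and 12.1 CPM in MEFs, at 20.5 and 14.4 CPM under carbidopa, at 13.1 and 17.9 CPM under LY-364947 and at 22.3 and 16.5 CPM under CHIR-99021. All treated libraries lay above both MEF libraries, but the replicates of each treatment were far apart. It was called higher with CHIR-99021 (log2 fold change 0.64, SE 0.22, adjusted p = 0.0453), but not without CHIR-99021 replicate 1 (0.41, adjusted p = 0.307), MEF replicate 1 (0.69, adjusted p = 0.128) or MEF replicate 2 (0.58, adjusted p = 0.200), or with RLE size factors (0.60, adjusted p = 0.0512). The value with carbidopa was 0.48 (SE 0.22, adjusted p = 0.114), called without carbidopa replicate 2 (0.72, adjusted p = 0.0138) and without a filter on low counts (0.50, adjusted p = 0.0186), and that with LY-364947 was 0.31 (SE 0.23, adjusted p = 0.331). Meis3 (ENSMUSG00000041420) lies on chromosome 7, 16175090 to 16186504, plus strand.

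Together the Meis family reached a higher sum in treated cells, and Meis2 took a larger share of it. The sum of the 3 genes was 15.3 and 14.6 CPM per kb in the MEF libraries, against 35.8 to 37.9 CPM per kb over the 6 treated libraries. Meis2 made up 51.9% and 53.2% of this sum before treatment and 71.3% to 75.8% after it, while Meis1 went from 20.8% and 21.4% to between 9.37% and 12.9%. With the coding length in place of the exon length, the share of Meis2 was 66.0% and 67.1% against 81.9% to 85.3%, so that its size moved with the length used and the treated libraries again lay above both MEF libraries.

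**Figure D2:**
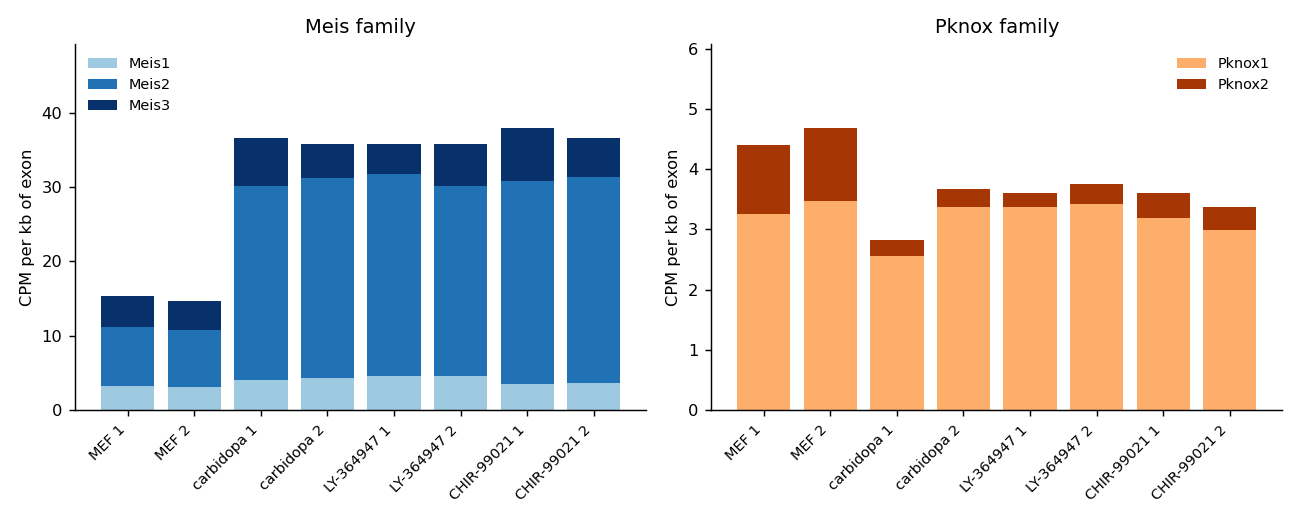
Stacked bars of CPM per kb of summed exon length in each of the 8 libraries (linear axes from 0, different scales), for Meis1, Meis2 and Meis3 on the left and Pknox1 and Pknox2 on the right. The Meis sum goes from 14.6 and 15.3 in MEFs to 35.8 or more in every treated library, while the Pknox sum goes from 4.40 and 4.68 to 3.75 or less.

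Of Pbx2, Pbx3 and Pbx4, whose proteins bind Hox proteins directly, Pbx2 was called higher in 2 treatments and Pbx3 lower in 3, while Pbx4 had more reads in every treated library. Pbx2, which is broadly expressed, had 26.3 CPM in both MEF libraries. It reached 42.8 and 33.5 CPM under carbidopa, 30.6 and 32.1 CPM under LY-364947, and 34.8 and 34.0 CPM under CHIR-99021. Every treated library was above both MEF libraries, and carbidopa replicate 1 was the highest. The log2 fold change was 0.54 with carbidopa (SE 0.13, adjusted p = 0.00895) and 0.39 with CHIR-99021 (SE 0.13, adjusted p = 0.0388), and 0.25 with LY-364947 did not pass (SE 0.13, adjusted p = 0.176), though it did when only LY-364947 and MEF libraries were fitted (0.26, adjusted p = 0.0337). The value with carbidopa was 0.35 without carbidopa replicate 1, and its call was lost without MEF replicate 1 (0.54, adjusted p = 0.0640) or MEF replicate 2 (0.53, adjusted p = 0.0683). The call with CHIR-99021 was lost without any 1 of the 4 libraries compared (0.38 to 0.41, adjusted p = 0.103 to 0.167) and in DESeq2 (0.35, adjusted p = 0.0889). Pbx2 (ENSMUSG00000034673, chromosome 17, 34591266 to 34597400, plus strand) shares 6.24% of its exonic bases with Gpsm3 on the same strand, which had 3.29 and 3.87 CPM in MEFs and 3.48 to 7.96 CPM in treated cells.

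Pbx3 was lower in treated cells. Levels of 19.2 and 17.4 CPM in MEFs stood against 9.79 and 13.2 CPM under carbidopa, 12.97 and 11.9 CPM under LY-364947 and 12.3 and 12.7 CPM under CHIR-99021, so that the highest treated library lay below the lowest MEF library. The log2 fold change was -0.67 for carbidopa (SE 0.16, adjusted p = 0.00932, 1.59-fold lower), -0.56 for LY-364947 (SE 0.16, adjusted p = 0.0259) and -0.55 for CHIR-99021 (SE 0.16, adjusted p = 0.0224). With carbidopa the call was lost without MEF replicate 1 (-0.60, adjusted p = 0.0748). With LY-364947 and CHIR-99021 it was lost without any 1 of the 4 libraries compared (-0.63 to -0.49, adjusted p = 0.0760 to 0.157, and -0.63 to -0.48, adjusted p = 0.0656 to 0.136), where 1 group then holds a single library that is assumed to vary like the others. Pbx3 (ENSMUSG00000038718) lies on chromosome 2, 34171457 to 34373142, minus strand, and shares no 75-base word with another gene.

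Pbx4, a family member best known from the testis, had few reads in every library. The MEF libraries held 6 reads and 1 read, those of carbidopa 38 and 24 reads, those of LY-364947 29 and 32 reads, and those of CHIR-99021 17 and 21 reads. Every treated library held at least 17 reads, against at most 6 in MEFs, a difference without which the gene would not have been tested. From the pooled reads, scaled by TMM, the ratio to MEFs was 6.01 for carbidopa (exact 95% confidence interval 2.75 to 15.6), 6.89 for LY-364947 (3.15 to 17.9) and 4.54 for CHIR-99021 (2.00 to 12.1), intervals that cover counting error only. The fitted log2 fold changes of 2.54, 2.74 and 2.14 are given as a description, with no p, since the gene entered the fit through the libraries in which it was high. Without MEF replicate 2 they were 1.68, 1.88 and 1.28, and without MEF replicate 1 they were 4.35, 4.55 and 3.96 and rested on 1 MEF read. Pbx4 (ENSMUSG00000031860) lies on chromosome 8, 69832491 to 69872292, plus strand.

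The Pknox genes went separate ways. Pknox2, the member known from more restricted expression, fell in all 3 treatments. It had 11.8 and 12.5 CPM in the MEF libraries, but 2.73 and 2.94 CPM under carbidopa, 2.36 and 3.30 CPM under LY-364947, and 4.38 and 3.83 CPM under CHIR-99021. The groups did not overlap, and the CHIR-99021 libraries were the highest of the treated ones. The log2 fold change was -2.10 for carbidopa (SE 0.21, adjusted p = 2.54e-05, 4.28-fold lower), -2.10 for LY-364947 (SE 0.21, adjusted p = 2.96e-05, 4.27-fold lower) and -1.56 for CHIR-99021 (SE 0.20, adjusted p = 1.71e-04, 2.96-fold lower). It was called under all 10 alternatives in each treatment, with values between -2.36 and -1.47. Pknox2 (ENSMUSG00000035934) lies on chromosome 9, 36890982 to 37147407, minus strand.

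Pknox1, the widely expressed paralog required in the early embryo, was at 22.6 and 24.1 CPM in MEFs, 17.7 and 23.4 CPM under carbidopa, 23.3 and 23.8 CPM under LY-364947 and 22.1 and 20.8 CPM under CHIR-99021. Only carbidopa replicate 1 stood apart, below the other 7 libraries. No treatment passed the test, with a log2 fold change of -0.18 for carbidopa (95% confidence interval -0.50 to 0.14, adjusted p = 0.342), 0.01 for LY-364947 (-0.31 to 0.33, adjusted p = 0.958) and -0.12 for CHIR-99021 (-0.45 to 0.20, adjusted p = 0.531). The 2 carbidopa libraries differed, since the value was -0.40 and called without carbidopa replicate 2 (adjusted p = 0.0182) but 0.0042 without carbidopa replicate 1 (adjusted p = 0.985). Pknox1 (ENSMUSG00000006705) lies on chromosome 17, 31564734 to 31607693, plus strand. With Pknox1 near its MEF level and Pknox2 lower, the share of Pknox2 in the summed CPM per kb of both genes went from 26.0% and 25.8% to between 6.34% and 11.7%. This share moved with the length used, from 32.4% and 32.6% to between 8.54% and 15.5% per kb of coding length, and from 37.7% and 38.0% to between 10.6% and 18.9% per kb of the longest transcript. Pknox1 overlaps an antisense gene over 2.24% of its exonic bases.

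**Figure D3:**
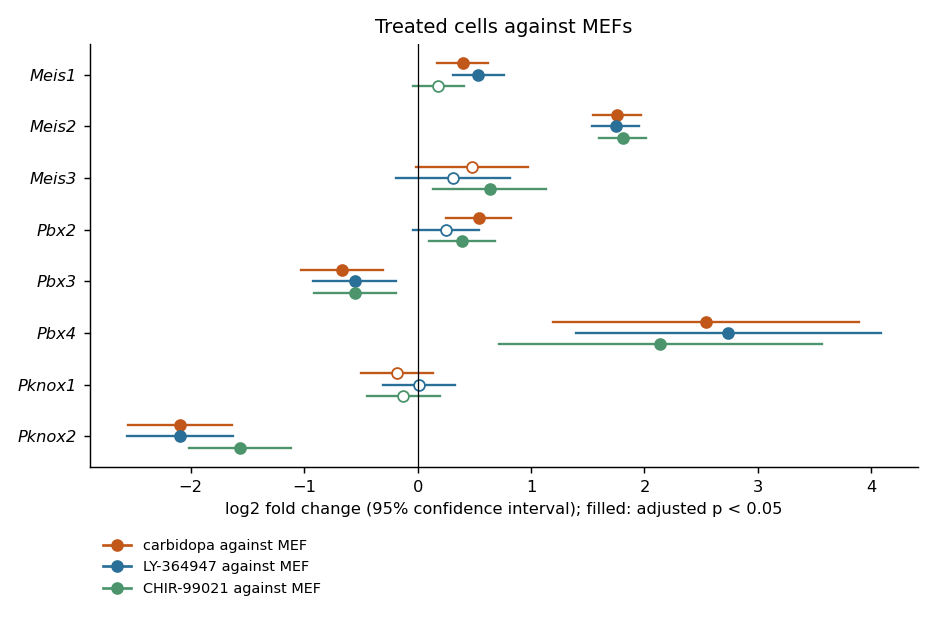
Log2 fold change of each gene in treated cells against MEFs from edgeR's quasi-likelihood test, with bars for the 95% confidence interval, colors for the 3 treatments and filled points for an adjusted p under 0.05. Meis2 lies at 1.75 to 1.81 and Pknox2 at -2.10 to -1.56 with narrow intervals, whereas the intervals of Pbx4, which entered the fit only through its treated libraries, are the widest.

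In the count of calls, which includes Pbx4 as higher in each contrast, 6 of the 8 genes differed from MEFs with carbidopa (4 higher, 2 lower), against 37.7% of all genes tested (18% higher, 19.7% lower). With LY-364947, 5 differed (3 higher, 2 lower), against 31% of all genes tested (13.7% higher, 17.2% lower). With CHIR-99021, 6 differed (4 higher, 2 lower), against 38.8% (18.7% higher, 20.1% lower). Pbx4 was kept only because its treated libraries were high. With at least 10 counts required in every library it drops out, and 5, 4 and 5 of the other 7 genes were called. Under that filter 4955, 3965 and 5178 of all 12787 genes tested were called, in the same order of treatments. Over the 8 members the log2 fold changes had a median of 0.44, 0.28 and 0.29 in this order, beside 0.04, 0.03 and 0.04 over all genes tested. This median includes Pbx4. The middle value of the other 7 genes was 0.40 (Meis1), 0.25 (Pbx2) and 0.18 (Meis1). Meis2 was higher and Pbx3 and Pknox2 lower in all 3 contrasts, which share the same MEF libraries. The share of all genes tested that were called the same way in all 3 contrasts was not counted. Leaving out MEF replicate 1 or MEF replicate 2 gave 3 calls each with carbidopa, and with CHIR-99021 2 or 3 calls were left without any 1 of the libraries compared. With LY-364947, 3 calls were left without MEF replicate 2.

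The treatments were also tested against each other. Between LY-364947 and carbidopa 0 of the 8 genes passed edgeR's test, against 0.0132% of all genes tested, with 1 of them (Pbx2) at an unadjusted p under 0.05, and DESeq2 called 0 as well. Without carbidopa replicate 2, which left 1 carbidopa library, Pbx2 differed by -0.45 (-0.29 with all libraries) and Pknox1 by 0.41 (0.19). Between CHIR-99021 and carbidopa again 0 passed in edgeR and in DESeq2, against 14.7% of all genes tested (6.62% higher, 8.08% lower), with 1 (Pknox2) at an unadjusted p under 0.05. In this contrast Pbx2 differed by -0.31 without carbidopa replicate 2 and by -0.15 with all libraries. For Meis2 these differences were small and narrowly bounded. It differed by -0.01 between LY-364947 and carbidopa (95% confidence interval -0.21 to 0.19), by 0.05 between CHIR-99021 and carbidopa (-0.15 to 0.25) and by 0.06 between CHIR-99021 and LY-364947 (-0.14 to 0.26).

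Between CHIR-99021 and LY-364947, Meis1 alone passed, lower with CHIR-99021 by a log2 fold change of -0.35 (SE 0.10, adjusted p = 0.0426), where 14.1% of all genes tested were called (6.45% higher, 7.69% lower). The call was lost in DESeq2 (-0.37, adjusted p = 0.0656), without a filter (-0.33, adjusted p = 0.125), and without any 1 of the 4 libraries compared (-0.36 to -0.33, adjusted p = 0.147 to 0.254). Pknox2 was higher with CHIR-99021 than with LY-364947 by 0.53 (95% confidence interval 0.04 to 1.03, adjusted p = 0.143) and than with carbidopa by 0.53 (0.05 to 1.02, adjusted p = 0.135), which did not pass. For Pbx4, with few reads, the interval of this contrast ran from -1.61 to 0.41.

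**Figure D4:**
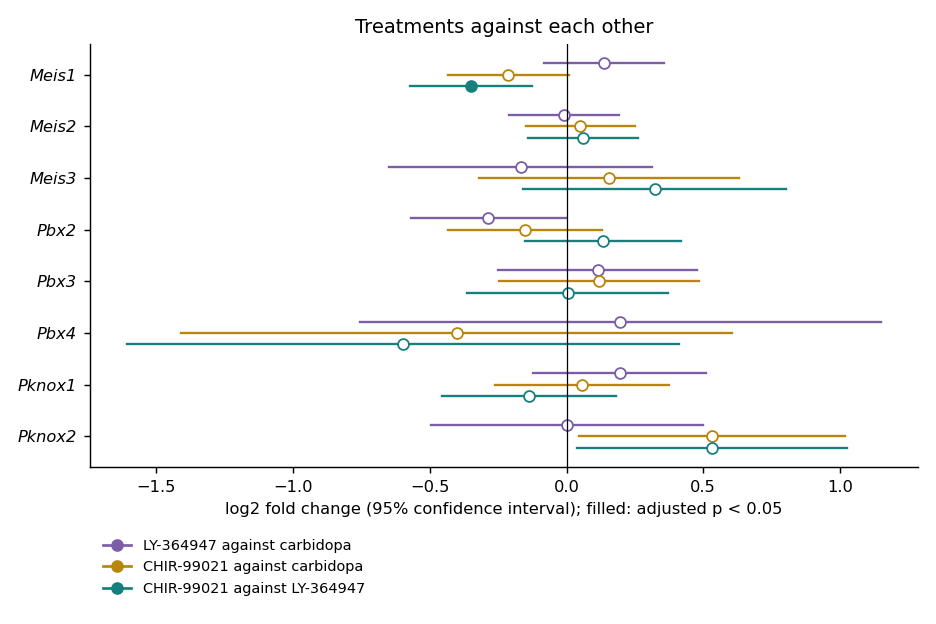
Log2 fold change of each gene between treatments from edgeR's quasi-likelihood test, with bars for the 95% confidence interval and filled points for an adjusted p under 0.05. One point is filled, Meis1 at -0.35 between CHIR-99021 and LY-364947, and the intervals of Meis2 stay within -0.21 and 0.26.

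The Hox genes, whose proteins pair with Pbx, Meis and Pknox proteins, are numbered by paralog group from the anterior (low) to the posterior (high) end of the axis. Of the 39 Hox genes listed, 34 could be tested. Carbidopa gave 10 higher and 8 lower, LY-364947 10 and 10, and CHIR-99021 12 and 6, in all 52.9%, 58.8% and 52.9% of those tested beside 37.7%, 31% and 38.8% of all genes. The median log2 fold change was 0.10, -0.03 and 0.22, beside 0.04, 0.03 and 0.04 over all genes. The calls are given here by paralog number, a grouping made after the values were seen and not tested. Of the 13 tested genes of groups 1 to 5, 9, 9 and 10 were called under the treatments in that order, each of them higher. Of the 13 tested genes of groups 9 to 13, 6, 7 and 4 were called, each of them lower. The 8 genes of groups 6 to 8 gave calls in both directions (1 higher and 2 lower, 1 and 3, and 2 and 2). Their only higher call with carbidopa and LY-364947 was Hoxa6, which had 4 and 6 reads in MEFs and was kept through its treated libraries. Hoxa13, counted as lower with these 2 compounds, was kept through MEFs (10 and 20 reads). With at least 10 counts required in every library, 31 Hox genes were tested. Calls were then 9 higher and 6 lower, 9 and 8, and 11 and 5. Leaving out either MEF library lowered the number of Hox genes called in each treatment, in fits with 1 MEF library left.

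Hoxa5, a gene of the thoracic and lung region, had a mean of 3.77 CPM in MEFs and, in the order carbidopa, LY-364947, CHIR-99021, of 16.6, 14.3 and 23.99 CPM. Its log2 fold changes were 2.13 (adjusted p = 4.15e-05), 1.92 (adjusted p = 9.86e-05) and 2.67 (adjusted p = 7.91e-06). In the same order the log2 fold changes of Hoxa3 were 1.53, 1.72 and 2.37, those of Hoxa4 1.54, 1.37 and 2.48, and those of Hoxb4 1.30, 1.02 and 1.71 (edgeR, adjusted p = 0.00230 or less for each). At the other end, Hoxd13, named after its values were seen, had -2.34, -2.21 and -1.75. Between CHIR-99021 and LY-364947, 10 of the 34 Hox genes were called, each of them higher with CHIR-99021 (29.4%, against 14.1% of all genes called and 6.45% higher). Between CHIR-99021 and carbidopa 4 were called, each again higher with CHIR-99021 (11.8%, against 14.7% of all genes called and 6.62% higher).

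**Figure D5:**
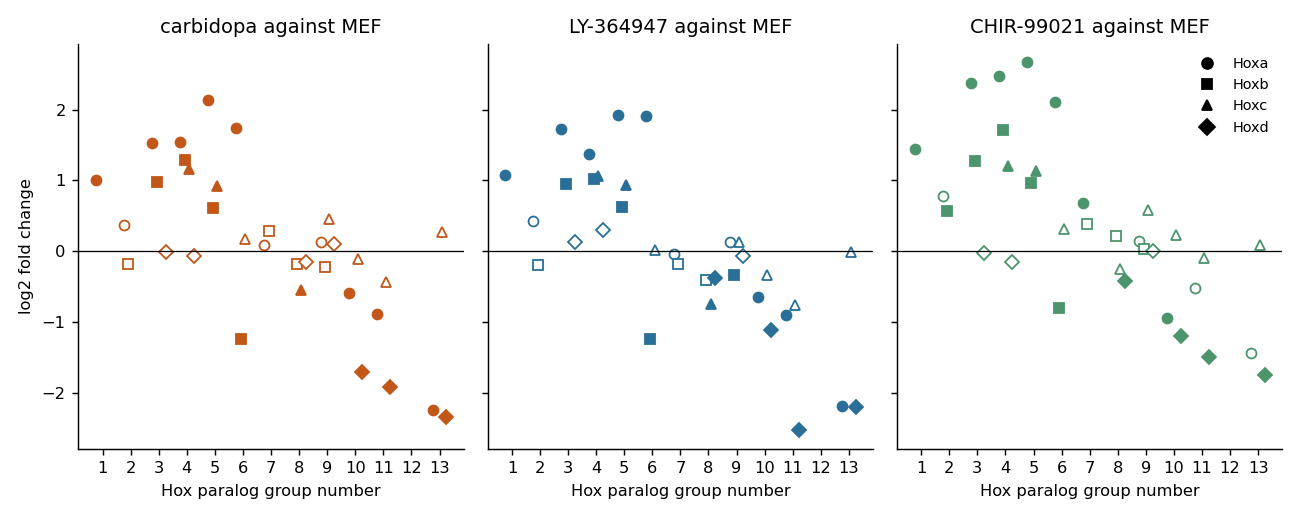
Log2 fold change of the 34 tested Hox genes against MEFs (vertical axis) by paralog group number (horizontal axis), with marker shapes for the 4 clusters and filled markers for an adjusted p under 0.05. Filled markers of groups 1 to 5 lie above 0 and those of groups 9 to 13 below 0 in each treatment.

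Of the other TALE homeobox genes, 7 of 9 could be tested, and Irx4 and Irx6 had at most 5 reads in any library. Carbidopa gave 2 higher and 4 lower, LY-364947 2 and 5, and CHIR-99021 2 and 3, with a median log2 fold change of -0.81, -1.02 and -0.37 beside the same medians over all genes. These are 85.7%, 100% and 71.4% of the 7 genes, beside 37.7%, 31% and 38.8% of all genes (18% higher and 19.7% lower, 13.7% and 17.2%, and 18.7% and 20.1%). With carbidopa 3 calls were left without MEF replicate 2. With LY-364947 4 were left without MEF replicate 1 or either LY-364947 library, and with CHIR-99021 2 without MEF replicate 2 and 3 without either CHIR-99021 library. Mkx, a regulator of tendon cells, rose, with log2 fold changes of 0.69, 0.67 and 1.36 (adjusted p = 9.85e-04, 0.00131 and 8.30e-06). Tgif2 was the other gene called higher in all 3 treatments, with carbidopa only just (0.49, edgeR, adjusted p = 0.0491). Its carbidopa call was lost with RLE size factors, at least 10 counts in every library, the compared groups alone, and DESeq2. Tgif1, a repressor of TGF-beta and retinoid responses, fell, with -0.86, -1.02 and -0.37 (adjusted p = 1.10e-04, 3.60e-05 and 0.0164). Irx1 had -0.81, -1.09 and -0.82 (adjusted p = 0.00245, 4.16e-04 and 0.00229), and Irx5 -0.87, -1.32 and -0.80 (adjusted p = 0.0141, 0.00183 and 0.0199), all from edgeR. The call of Tgif1 with CHIR-99021 was lost without any 1 of the 4 libraries compared (-0.38 to -0.36, adjusted p = 0.0778 to 0.105). That of Irx5 was lost without MEF replicate 2 with carbidopa (-0.76) and with CHIR-99021 (-0.69), and without CHIR-99021 replicate 1 (-0.86) or replicate 2 (-0.74).

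Patterns were compared by the Pearson correlation of log2 CPM over the 8 libraries, as a description, since the libraries share groups and depth. A strong r, of either sign, between genes that differ from MEFs in the treated libraries largely restates those differences. Among the members, Meis2 and Pknox2 ran most nearly opposite (r = -0.95), followed by Pbx2 and Pbx3 (r = -0.94). The highest r was that of Meis2 and Pbx4 (0.89), but Pbx4 was kept only because its treated libraries were high. Its r with a gene that rose is therefore no separate result. Without Pbx4, Pbx3 and Pknox2 ran most nearly together (r = 0.87). Over all tested genes, the patterns most like that of Meis2 were those of Crim1 (r = 0.998), a transmembrane regulator of BMP signaling, and Rarb (r = 0.998), a retinoic acid receptor gene. Crim1 had a mean of 185 CPM in MEFs and of 593, 604 and 639 CPM under the 3 treatments in the order above, while Rarb had 0.898 CPM and 409, 401 and 340.4 CPM. For Pknox2 they were Prl3a1 (r = 0.998), a prolactin family gene with 20.0 CPM in MEFs and 0.234, 0.268 and 0.722 CPM in treated cells, and Esyt1 (r = 0.996). For Meis1 they were Sorl1 and Gpr137c (both r = 0.990), for Meis3 Mocs3 and Dus3l, for Pbx2 Slc25a4 and Jtb, for Pbx3 Slc35e1 and Zbtb41, for Pbx4 Cyp11b1 and Rpgrip1, and for Pknox1 Lynx1 and Itpr2, with r from 0.978 to 0.994. The pair of Pbx4 carries the same limit, and Cyp11b1 was itself low, at 0.320 CPM in MEFs and 0.868 to 1.40 CPM in treated cells.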

How the data were processed

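RNA-seq libraries of MEFs and of MEFs treated with 3 compounds were sequenced by the authors. Per the labels and the methods, reads were mapped to mm10 with STAR 2.4.2a and counted on genes with featureCounts. The deposited values are counts of reads per gene, whole numbers without normalization, and the annotation release and the strand setting are not given in the sources used here. The library kit is NEBNext Ultra in the methods and SMARTER in the labels. Groups and replicate numbers come from the labels. Total counts of 15039566 to 20504338 per library leave the largest counting error for Pbx4 and for Pknox2, which had 42 to 76 reads in a treated library. Replicates differed by 4.34 to 36.4 times the chi-square value of sampling noise per gene, so each was used as its own sample.

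Counts were analysed in R 4.3.3 with edgeR 4.0.16 (TMM, filterByExpr, quasi-likelihood test, group as the only term, all 8 libraries). Of 50578 identifiers, 99.6% were found in GENCODE M21 (GRCm38, also called mm10), which gave positions and lengths. Correlations used log2 CPM with a prior count of 2. Alternatives were DESeq2 1.42.0, RLE size factors, a minimum of 10 counts in each library or no filter, a fit of only the groups compared, a block for the replicate number, and a fit without each library in turn. The members and lists were chosen with earlier results of these data known. Named genes were all 8 members, the 4 genes of the Hox and of the other TALE list with the smallest p against MEF, and the 2 genes most correlated with each member. No set test was run.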

Additional observations from a re-analysis of the deposited data

How the results depend on the processing

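Meis2 and Pknox2 were called against MEF in each treatment under all 10 alternatives, and Meis1 with LY-364947 too. The lost calls of the other members apart from Pbx4 are given with those members. Genes called between LY-364947 and carbidopa numbered 2, against 16 in DESeq2, 329 without a filter and 0 with the compared groups alone. The latter fit called 1027 genes between CHIR-99021 and carbidopa (2227 otherwise) and 3673 between CHIR-99021 and LY-364947 (2143 otherwise). The member called between CHIR-99021 and LY-364947 was lost (0 called) in DESeq2, without a filter and with a replicate block. The replicate numbers did not pair the libraries (r = -0.16 to 0.13 over 6 pairs of groups), and every other call of a member held with the block. Signs turned only for differences near 0 that did not pass. These were Pknox1 with LY-364947 against MEF (-0.0068 with RLE, -0.0067 in DESeq2), Meis2 between LY-364947 and carbidopa (0.00082 and 0.00081), Pbx3 between CHIR-99021 and LY-364947 (-0.013 and -0.013, -0.015 with at least 10 counts, -0.0054 with the groups alone) and Pknox2 between LY-364947 and carbidopa (-0.015 without a filter, -0.0037 with a replicate block). The causes were not tested.

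Leaving out 1 library left fewer samples and gave these ranges of calls. Members called, Pbx4 included, were 3 to 8 with carbidopa, 3 to 4 with LY-364947, 2 to 3 with CHIR-99021, 0 to 2 between LY-364947 and carbidopa, 0 to 1 between CHIR-99021 and carbidopa and 0 between CHIR-99021 and LY-364947. All genes called were 3142 (without MEF replicate 2) to 7996 (without carbidopa replicate 2), 2841 to 3095 and 3433 to 4709 against MEF, and 2 to 3816 (without carbidopa replicate 2), 715 to 4632 (without carbidopa replicate 2) and 663 to 1200 between treatments. Hox genes called with LY-364947 were 13 to 15, and other TALE genes 3 to 6, 4 to 5 and 2 to 4. Signs turned between LY-364947 and carbidopa for Meis2 (-0.045 to 0.028), Meis3 (-0.42 to 0.11), Pbx3 (-0.085 to 0.34), Pbx4 (-0.10 to 0.57) and Pknox2 (-0.27 to 0.23). Between CHIR-99021 and carbidopa they turned for Meis3 (-0.077 to 0.44), Pbx2 (-0.31 to 0.040), Pbx3 (-0.075 to 0.35) and Pknox1 (-0.13 to 0.27). They also turned for Pbx3 between CHIR-99021 and LY-364947 (-0.052 to 0.062) and for Pknox1 against MEF with LY-364947 (-0.034 to 0.056) and carbidopa (-0.40 to 0.0042). Pbx4 could not be tested with at least 10 counts in every library, and its few MEF reads limit its folds.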
